A study of Zea mays with 16 samples.

Results

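Subsidiary cells of the maize stomatal complex were compared between day and night. The comparison used every library of these cells, 4 collected by day and 4 by night, out of 16 libraries in the study. Plants of inbred line B104 had 16 h of light at 25 °C and 8 h of darkness at 22 °C each day. Strips of epidermis came from leaf 3 of seedlings 2 weeks old. Day strips were frozen 2 h after the lights came on and night strips 2 h after they went off, so the effects of light, temperature and hour cannot be told apart. The other 8 libraries, guard cells of the same line at the same times, serve here as a comparison. They also enter the fit that sets each gene's standard error and p-value. Each sample held the content of 2 tubes of about 1500 laser-cut cells. Night samples of subsidiary cells have a title that reads like day, and they were grouped by their treatment label, which says night.

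In grasses each dumbbell-shaped guard cell is flanked by a subsidiary cell. The guard cells swell with potassium, counter-ions and water when the pore opens, and the subsidiary cells act as a reservoir that gives up and takes back these solutes. Aquaporins, the membrane channels for water named in the series title, and potassium channels and transporters carry this exchange. Light, abscisic acid and the circadian clock are among the signals known to act on stomata.

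The 8 subsidiary cell libraries held 16.6 to 28.9 M recovered reads, 20.9 ± 4.03 M by day (SD, n = 4) and 24.0 ± 3.24 M by night. Day replicate 1 stood apart. Its mean Spearman correlation with the other day libraries, across genes, was 0.702 against 0.771 to 0.785 for these. The mean correlation within the group was 0.760 by day and 0.811 by night, with no overlap between libraries. A 2-sided exact permutation test gave p = 0.0286, the smallest 4 against 4 libraries allow (0.171 adjusted over 6 library measures). That test cannot decide whether the groups differ, because the values within a group share library pairs and are not independent. Day pairs with replicate 1 correlated at 0.689 to 0.712. Pairs among day replicates 2 to 4 correlated at 0.808 to 0.831, near the night mean, so the gap rested on day replicate 1. The 50 most abundant genes took 36.1 ± 8.81% of reads by day and 27.6 ± 2.57% by night. The deposited descriptions, of which the first word is used here, name no defining gene of subsidiary cells, so the cell type label could not be checked against markers. Of other cell types, mesophyll C4 names (7 genes) took 0.0164, 0.0549, 0.0409 and 0.0418% of reads in the day libraries and 0.0214 to 0.0285% by night. Day replicates 2 to 4 thus lay above every night library, and day replicate 1 lay below them all. Bundle sheath names (18 genes) took 0.0296 to 0.0686% by day and 0.0410 to 0.0537% by night. Vascular names (19 genes) took 0.0158 to 0.0204% by day and 0.0151 to 0.0201% by night. No gene of these 3 lists was at 0 in all 4 libraries of either group, and their part in the results below was not tested.

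Of 37759 genes tested, 461 (1.22%) differed between day and night, 254 higher by day (0.673%) and 207 lower by day (0.548%), by limma on log2(normalised count + 1) with a Benjamini-Hochberg adjusted p under 0.05. At an unadjusted p under 0.05 there were 4242 genes (11.2%; 5.24% higher and 5.99% lower by day). Fold changes below are log2 differences, day minus night, with the standard error. Their median was 2.73 among the genes higher by day and -2.96 among those lower, against -0.03 over all genes. The day and night libraries did not overlap for 455 of the 461 genes, and for 3337 of all genes tested (8.84%; day above for 4.25% and night above for 4.59%). DESeq2 called 1.99% of its genes as higher and 1.62% as lower by day, and edgeR 0.503% and 0.336%. Without a single library the count fell to 258 (day replicate 4), 235 (night replicate 1), 246 (night replicate 2), 273 (night replicate 3) or 292 (night replicate 4), and 185 genes were called whichever library was left out. No called gene changed sign when a library was left out, but this was nearly fixed in advance, since the genes were chosen as called with all libraries. The authors' deposited table calls 1347 genes for the same contrast at the same threshold, 742 higher by day, and holds 457 of the 461.

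**Figure D1:**
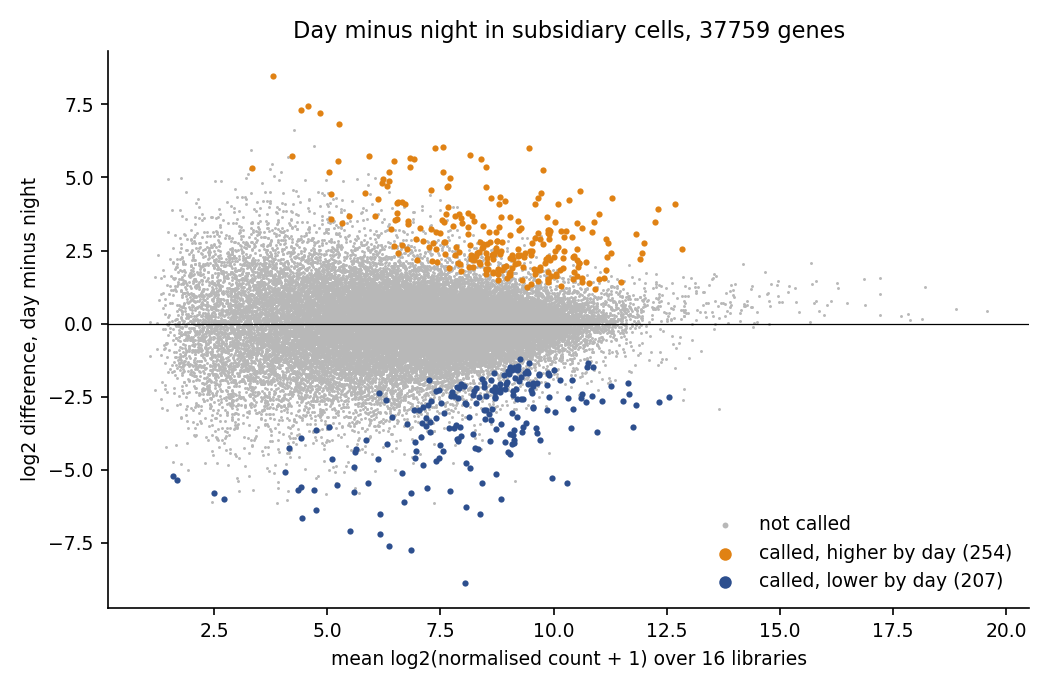
Each point is 1 gene, with its mean level over 16 libraries on the horizontal axis (log2 of normalised count + 1) and its log2 difference between day and night in subsidiary cells on the vertical axis. Orange points are the 254 genes called higher by day and blue points the 207 called lower by day.

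Most called genes carry no description: 120 of the 461 have a word, 62 higher and 58 lower by day. The gene of smallest p, Zm00001d031054, has none. It was at 9884, 9810.0, 7378 and 7804 normalised counts in day replicates 1 to 4 and at 352, 379.8, 231 and 598 by night, a difference of 4.55 ± 0.35 (adjusted p = 2.8e-06). Absence of overlap was a condition for naming this gene, but the gap was wide, from 598 in the highest night library to 7378 in the lowest day library. The next 4 undescribed genes were likewise higher by day, Zm00001d054011 by 4.22 ± 0.37, Zm00001d017147 by 4.66 ± 0.44, Zm00001d039577 by 4.48 ± 0.42 and Zm00001d014756 by 4.28 ± 0.40 (adjusted p = 1.42e-05 for the first and 1.79e-05 for the others).

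A potassium transport gene gave one of the clearest differences. Zm00001d044717, described as Potassium, was among the more abundant transcripts of subsidiary cells, at 24366, 89624, 37663 and 44983 normalised counts by day and 3184, 2785, 3829 and 2014 by night. The lowest day library stood well above the highest night library, and the difference was 3.93 ± 0.42 (adjusted p = 5.42e-05). In guard cells the same gene differed by 3.02 (adjusted p = 0.000739). It was the only 1 of 32 potassium transport genes to pass (3.1%, against 1.22% of all genes), with a list median of 0.12. The list took 0.214 to 0.459% of reads by day and 0.108 to 0.128% by night. These shares include Zm00001d044717, and the shares without it were not computed.

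Of 25 aquaporin list genes, 1 rose by day and 0 fell (4%, against 1.22% of all genes). Of the 25, 19 had a positive difference, and the list median was 0.59. Zm00001d019563, described as Aquaporin, was at 2116, 926, 7802 and 2650.3 by day and 42, 0.879, 113 and 267 by night. The groups did not overlap, yet the night libraries ranged from near 0 to 267, and the difference of 5.99 ± 1.32 had a wide error (adjusted p = 0.0282). The call was lost in edgeR (adjusted p = 0.0788) and without day replicate 1, 3 or 4 or night replicate 1 or 2 (up to 0.0974). Without day replicate 1 the list had 3 called members, without that library and guard night replicate 4 it had 4, and DESeq2 gave 5, all higher by day. In guard cells limma called 4 of the 25, all higher by day, with a median of 1.01.

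Genes described as 2C-type went both ways. The word 2C-type marks a class of protein phosphatases, some of which are known to hold abscisic acid signalling in check. Zm00001d009626 was at 1247, 6824, 4889 and 4019.8 by day and 275, 504, 454 and 393 by night (3.18 ± 0.56, adjusted p = 0.00519). Zm00001d037949 was at 760.0, 6343, 3097 and 3309 by day and 38.9, 9.67, 30.5 and 200.4 by night (6.03 ± 1.08, adjusted p = 0.00611). In both genes day replicate 1 was the lowest day library and still lay above all night libraries. Zm00001d014291 moved the other way, from 1167, 2507, 1810.5 and 5283 by night to 357, 276, 683 and 315 by day (-2.59 ± 0.48, adjusted p = 0.00829). These were the 3 called of 39 abscisic acid and 2C-type genes (7.69%, against 1.22% of all genes), and all 3 are described as 2C-type. The list median was 0.27, or 0.02 over the 31 genes left by narrower words chosen after the values were seen.

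**Figure D2:**
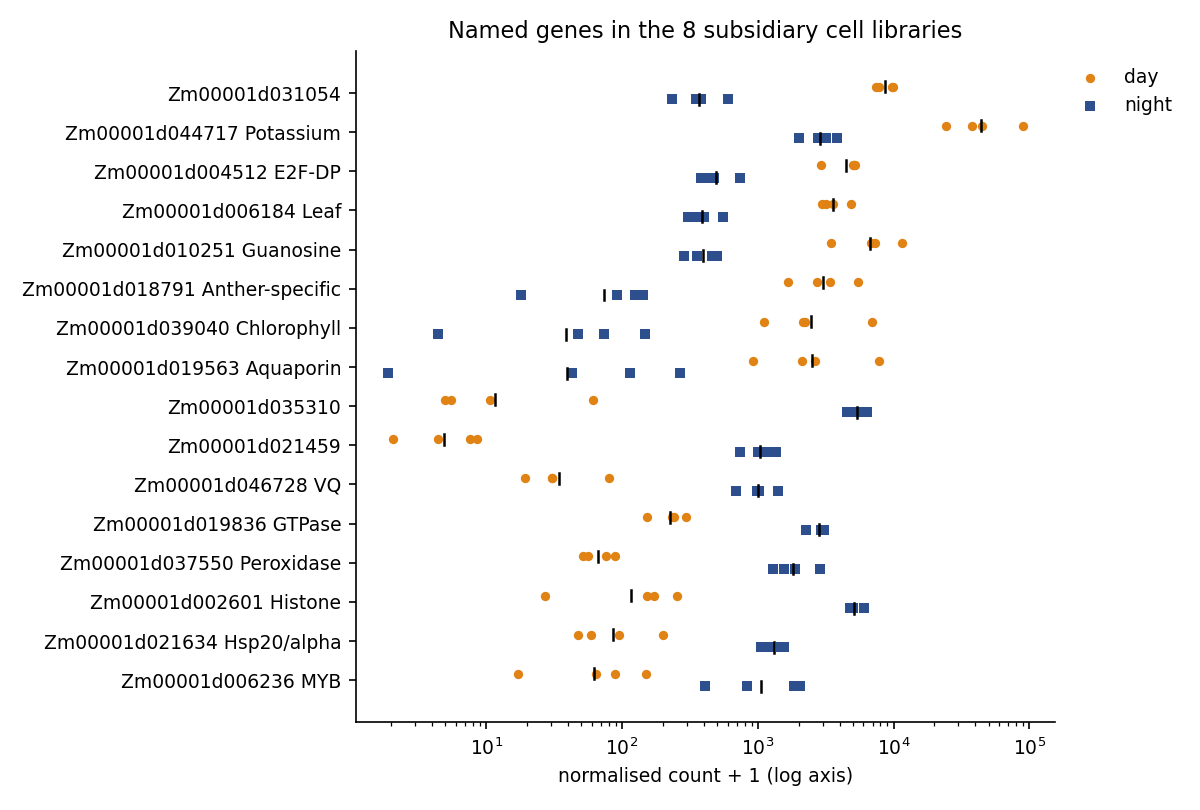
Normalised count + 1 on a log axis for 16 named genes, with 1 point for each subsidiary cell library (orange circles by day, blue squares by night) and a black bar at the mean of the log values of the 4 libraries. The day and night points are separate for each gene shown, which was a condition for naming genes outside the lists. The genes run from Zm00001d031054 at the top, higher by day, to the MYB gene Zm00001d006236 at the bottom, lower by day.

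Genes whose description begins with Chlorophyll, a word given above all to the chlorophyll a-b binding proteins that gather light for the photosystems, had mostly positive differences. Of 30 tested, 5 rose and 0 fell (16.7%, against 1.22% of all genes). Of the 30, 25 had a positive difference, and the list median was 2.94 against -0.03 over all genes. Zm00001d021784 was at 953, 1656, 2399 and 1948 by day and 145, 66.8, 318 and 91.7 by night (3.65 ± 0.45, adjusted p = 0.00026). Zm00001d039040 was at 1110.0, 2164, 6958 and 2235 by day and 46.7, 72.1, 147 and 3.42 by night (5.99 ± 0.84, adjusted p = 0.000765). In both, the lowest day library lay above the highest night library. Zm00001d021906 was at 975, 173, 809 and 619 by day and 20.2, 34.3, 0 and 18.5 by night (5.62 ± 0.96, adjusted p = 0.00375), with day replicate 2 the lowest of its group.

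The other called members, Zm00001d033136 at 484, 273, 2786 and 1225 by day and 98.8, 19.3, 38.4 and 172 by night (3.75 ± 0.79, adjusted p = 0.0215) and Zm00001d033132 at 462, 235, 2857 and 1358 by day and 105, 29.9, 54.9 and 158 by night (3.46 ± 0.78, adjusted p = 0.0342), had similar values in every library. Whether they share reads was not tested. The call of the former ended without day replicate 3 or 4 or night replicate 2 or 3 (adjusted p up to 0.0878), and that of the latter without day replicate 3 or 4 or night replicate 1, 2 or 3 (up to 0.124). As a share of reads the list took 0.0791, 0.0391, 0.171 and 0.0917% in the day libraries and 0.0258, 0.0533, 0.0312 and 0.0213% in the night libraries. Summed in this way the groups overlapped, because night replicate 2 lay above day replicate 2. The count was 3 without day replicate 3, day replicate 4 or night replicate 2, 6 without day replicate 1, 4 in edgeR and 12 in DESeq2. Guard cells had 11 called members, all higher by day, and a median of 3.86.

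The rest of the photosynthetic machinery gave fewer calls. Of 44 photosystem and electron transport genes 1 rose (2.27%, against 1.22% of all genes), with a list median of 0.36. It was Zm00001d018797, described as Photosystem, at 2862, 1504, 5711 and 2685 by day and 359, 249.7, 295 and 473 by night (3.09 ± 0.66, adjusted p = 0.0245). Its call ended without any 1 subsidiary cell library except day replicate 2 and night replicate 4 (up to 0.0894). In guard cells 3 of the 44 were called, all higher by day, with a median of 1.85. Of 32 Calvin cycle genes limma and edgeR called 0 (3 higher by day at an unadjusted p under 0.05 in limma) and DESeq2 called 2 as higher. The gene of smallest p among them, the Glyceraldehyde-3-phosphate gene Zm00001d027488, had a difference of 2.50 (adjusted p = 0.078 in limma, 0.00162 in DESeq2 and 0.0311 in limma without both libraries of lowest correlation, which are subsidiary day replicate 1 and guard night replicate 4). Of the 7 mesophyll C4 names limma and edgeR called 0, with a median of 1.64 and 4 higher by day at an unadjusted p under 0.05 in limma. DESeq2 called 3 as higher by day, and limma called 3 without both libraries of lowest correlation and 2 without day replicate 1. The PEP gene Zm00001d046170 had a difference of 1.64 (adjusted p = 0.12 in limma, 0.0129 in DESeq2 and 0.00282 in limma without both libraries). With only the subsidiary cell libraries the count was 0. The part of these marker names in the chlorophyll-binding result was not tested.

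Histone genes, which supply the proteins that package DNA, were the list with most called members lower by day. Of 90 genes whose description begins with Histone, 11 were lower by day and 1 was higher (13.3%, against 1.22% of all genes), and the list median was -1.09. All night libraries lay above all day libraries for 20 of the 90 and the reverse held for 1, against 4.59% and 4.25% of all genes. The word Histone also names enzymes that modify histones, so the list may hold genes of other function. Zm00001d002601 was at 26.1, 255, 171 and 152 normalised counts by day and 4748, 4833, 4984 and 6069.5 by night (-5.46 ± 0.84, adjusted p = 0.00155). No day library came near the lowest night library. The most abundant called member, Zm00001d036036, was at 864, 1547, 2112 and 1148 by day and 10531, 8483, 10430 and 7893 by night (-2.79 ± 0.50, adjusted p = 0.00678).

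Zm00001d034479 was at 73.6, 111, 101 and 76.7 by day and 758, 1791, 1931 and 1696 by night (-4.01 ± 0.56, adjusted p = 0.000671). Zm00001d013066 was at 131, 11.6, 14 and 15.9 by day and 1184, 1721, 1301 and 1191 by night (-5.71 ± 0.87, adjusted p = 0.00152), and Zm00001d025335 at 11.3, 6.31, 5.39 and 1.32 by day and 192, 322, 288 and 652 by night (-5.77 ± 0.91, adjusted p = 0.00199). All night libraries lay above all day libraries in these genes, although day replicate 1 of Zm00001d013066 was about an order of magnitude above the other day libraries. Also lower by day were Zm00001d019045 (-4.70 ± 0.84), Zm00001d044247 (-4.60 ± 0.97), Zm00001d045475 (-3.59 ± 0.78), Zm00001d044246 (-5.61 ± 1.25), Zm00001d032070 (-6.52 ± 1.55) and Zm00001d021422 (-4.09 ± 0.99), with adjusted p from 0.00643 to 0.0476. The exception was Zm00001d021300, at 438, 338, 208 and 184 by day and 8.56, 18.5, 34 and 5.47 by night (4.26 ± 0.78, adjusted p = 0.00749).

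**Figure D3:**
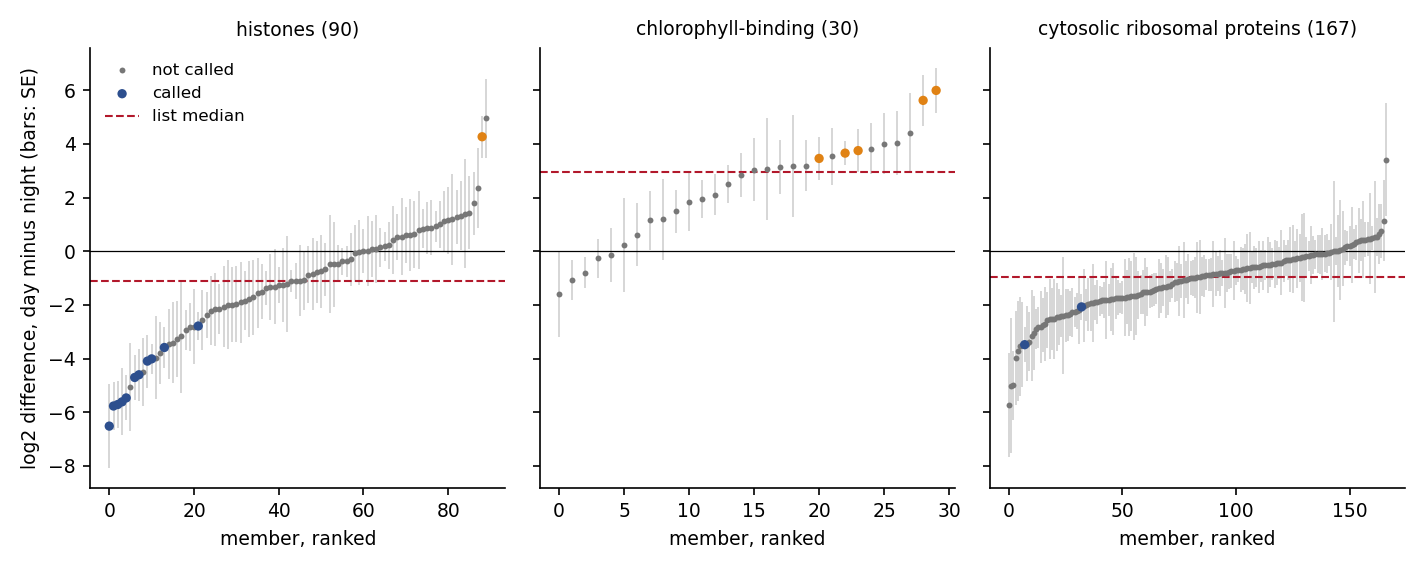
Log2 difference between day and night in subsidiary cells (vertical axis, bars are the standard error) for the members of 3 lists, ranked by value. Coloured points are called members, orange higher and blue lower by day, and the dashed line is the list median, -1.09 for histones, 2.94 for chlorophyll-binding and -0.98 for cytosolic ribosomal proteins.

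Summed over the list, histone genes took 0.0971, 0.0564, 0.0526 and 0.0512% of reads in the day libraries and 0.288, 0.217, 0.229 and 0.210% in the night libraries. The highest day library, replicate 1, lay far below the lowest night library. Fewer cells making these transcripts and less RNA per cell cannot be told apart in such bulk samples. The count of members lower by day was 7 without day replicate 4 or night replicate 4 and 6 without night replicate 1, 2 or 3, and it was 7 in edgeR and 14 in DESeq2. Plant genomes hold many near-identical histone genes, and how reads were shared among copies is not given in the sources used here, so values of single members are uncertain. In guard cells 0 of the 90 genes was called and the median was -0.31. The difference between the cell types did not pass for any of the 12 called members (limma, adjusted p 0.351 to 0.89).

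The cell cycle list did not move as the histones did. Of 24 genes 3 rose by day and 0 fell (12.5%, against 1.22% of all genes), with a list median of -0.10. Genes with the first word Cell, which can begin cell division and other names, are counted apart. Of these 14 genes 2 were called, both lower by day (14.3%, against 1.22% of all genes). Zm00001d004512, described as E2F-DP, the name of a family of factors that control entry into DNA replication, was at 5057, 2904, 5229.5 and 5148 by day and 740.5, 472, 380.1 and 452 by night (3.17 ± 0.33, adjusted p = 4.61e-05). Each day library lay several-fold above each night library. The Anaphase-promoting gene Zm00001d028837 was at 484, 266, 752 and 213 by day and 1.56, 11.4, 129.9 and 0 by night (5.57 ± 1.08, adjusted p = 0.0116), a call absent in edgeR (adjusted p = 0.193) and lost without night replicate 1 (0.0518). The Cyclin gene Zm00001d008221 had a difference of 1.92 ± 0.42 (adjusted p = 0.0268), a call lost in edgeR (0.0502) and without day replicate 2, 3 or 4 or night replicate 1 or 3 (up to 0.107).

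Cytosolic ribosomal protein genes had mostly negative differences, though the share called by limma was near the 1.22% of all genes. Of 167 genes described as 40S or 60S, 2 fell and 0 rose. All night libraries lay above all day libraries for 25 of the 167, and for 4.59% of all genes. In all, 144 had a negative difference, and the median was -0.98. At an unadjusted p under 0.05 in limma 41 were lower by day, as were 5.99% of all genes. The 40S gene Zm00001d019147 was at 35.1, 189, 40.9 and 60.9 by day and 1141, 792, 404 and 756 by night (-3.48 ± 0.65, adjusted p = 0.00838). The 60S gene Zm00001d049790 was at 345, 273, 99.1 and 153 by day and 946, 791, 968 and 633 by night (-2.07 ± 0.49, adjusted p = 0.0423). DESeq2 called 10 members as lower and 1 as higher, edgeR 1 as lower, and limma called 6 as lower with only the subsidiary cell libraries or without guard night replicate 4, and 5 without both libraries of lowest correlation. The limma count fell to 1 when any 1 subsidiary night library, subsidiary day replicate 2 or 4, or replicate 1 or 3 by day or replicate 3 by night of guard cells was left out. The list took 0.147 to 0.179% of reads in the day libraries and 0.295 to 0.414% in the night libraries, with no overlap. The plastid-type list (23 genes, described as 30S or 50S) had a median of -0.33. Limma and edgeR called 0 of its members (2 lower at an unadjusted p under 0.05 in limma) and DESeq2 called 1 as lower, Zm00001d010803 (adjusted p = 0.0217).

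**Figure D4:**
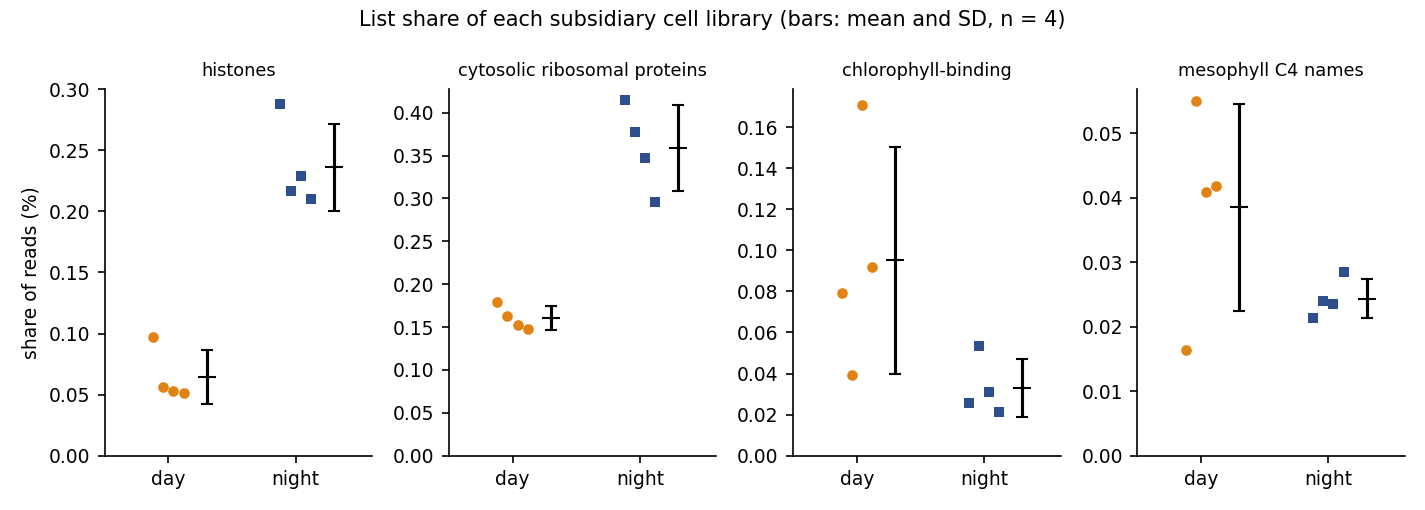
Share of all reads (vertical axis, %) taken by 4 gene lists in each subsidiary cell library, orange circles by day and blue squares by night, with the mean and SD of 4 libraries beside them. Day and night libraries are separate for histones and for cytosolic ribosomal proteins, and overlap for chlorophyll-binding and mesophyll C4 names. For mesophyll C4 names day replicates 2 to 4 lie above every night library and day replicate 1 lies below them all.

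Further described genes were higher by day. The gene described as Leaf, Zm00001d006184, was at 2957, 4873, 3183 and 3554 by day and 338, 307, 552 and 402 by night (3.19 ± 0.33, adjusted p = 4.73e-05). The Guanosine gene Zm00001d010251 was at 3453, 11595, 7309 and 6780.0 by day and 286, 497, 357 and 461 by night (4.09 ± 0.52), and the Anther-specific gene Zm00001d018791 at 1679.7, 5443, 2708 and 3389 by day and 141, 91.4, 124 and 17.1 by night (5.36 ± 0.69). None of the 3 overlapped between day and night, which was a condition for naming them. The first words of these descriptions do not tell what the proteins do. Smaller differences, with adjusted p from 0.000681 to 0.0019, were those of Nucleotide-sugar Zm00001d012153 (3.07 ± 0.43), Glycerol-3-phosphate Zm00001d024967 (3.15 ± 0.47), HESB-like Zm00001d008405 (2.77 ± 0.42), Carboxypeptidase Zm00001d049055 (2.21 ± 0.34) and ABC Zm00001d002871 (2.95 ± 0.46), a word for a family of transporters driven by ATP.

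Among genes lower by day, 2 without a description were nearly absent from day libraries. Zm00001d035310 was at 4.53, 60, 9.7 and 3.97 normalised counts by day and 5235, 5479, 6349 and 4527 by night (-8.86 ± 1.00, adjusted p = 9.87e-05). Zm00001d021459 was at 3.4, 1.05, 7.54 and 6.62 by day and 733, 1372, 1002 and 1187 by night (-7.73 ± 0.82, adjusted p = 5.14e-05). In guard cells the former also fell by day (-5.17, adjusted p = 0.0133), and the latter had a difference of -2.10 (adjusted p = 0.357). The undescribed genes Zm00001d011619 (-3.98 ± 0.44) and Zm00001d052876 (-4.38 ± 0.53) were also lower by day.

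The VQ gene Zm00001d046728, of a plant family named for a motif that binds WRKY factors, was at 29.4, 29.5, 18.3 and 79.4 by day and 993, 1404, 1025 and 689 by night (-4.85 ± 0.56, adjusted p = 0.000113). The GTPase gene Zm00001d019836 was at 293, 242, 151 and 234 by day and 2929, 3075, 3053 and 2247 by night (-3.64 ± 0.45, adjusted p = 0.000259). Both were several-fold higher in each night library than in any day library. The Phosphoserine gene Zm00001d048794 (-3.19 ± 0.54), the Reticulon-like gene Zm00001d038768 (-2.93 ± 0.49) and the SNF1 gene Zm00001d010662 (-3.09 ± 0.52) were lower by day with adjusted p from 0.00347 to 0.00348.

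Stress and redox names were mixed. Peroxidases use hydrogen peroxide, and glutathione transferases join glutathione to reactive compounds. Of 175 genes of these names 3 rose and 1 fell (2.29%, against 1.22% of all genes), with a median of 0.15. The Peroxidase gene Zm00001d037550 fell from 1550.1, 1289.7, 1879 and 2889.7 by night to 55.5, 75.8, 87.3 and 50.3 by day (-4.77 ± 0.65, adjusted p = 0.000534), whereas Zm00001d005279 was at 319, 355, 338 and 82 by day and 22.6, 20.2, 40.1 and 7.52 by night (3.54 ± 0.73, adjusted p = 0.0175) and GST7 Zm00001d042104 at 1666, 3090.0, 984 and 843 by day and 177, 251, 319 and 243 by night (2.56 ± 0.49, adjusted p = 0.0104). The call of Zm00001d005279 ended without day replicate 2 or 3 or night replicate 4 (up to 0.0656).

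Of 54 heat shock and chaperone genes 1 rose and 3 fell (7.41%, against 1.22% of all genes), with a median of -0.11. The small heat shock protein gene Hsp20/alpha Zm00001d021634 was at 199, 46.3, 93.8 and 58.2 by day and 1219, 1062, 1486 and 1552 by night (-3.95 ± 0.61, adjusted p = 0.00163). The Heat gene Zm00001d043536 was at 45.3, 18.9, 274 and 5.29 by day and 854, 615, 638 and 874 by night (-4.37 ± 0.86, adjusted p = 0.0124), a call absent in edgeR (0.128). The co-chaperone gene DnaJ Zm00001d012242 rose by day (3.75 ± 0.65, adjusted p = 0.00468).

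Of 213 transcription factor genes described as MYB, bHLH, WRKY, NAC or bZIP 2 rose and 2 fell (1.88%, near the 1.22% of all genes), with a median of 0.07. The MYB gene Zm00001d006236 was at 148, 63.1, 16.2 and 87.3 by day and 405, 829.9, 1853 and 2036 by night (-4.11 ± 0.69, adjusted p = 0.00347). One WRKY gene, Zm00001d043062, was at 2070.4, 4922, 2294 and 4734 by day and 256, 513, 238 and 767 by night (3.04 ± 0.55, adjusted p = 0.00699), and another, Zm00001d002405, moved the other way, at 31.7, 15.8, 61.4 and 7.94 by day and 838, 604, 760.1 and 274 by night (-4.60 ± 0.93, adjusted p = 0.0155). The latter call ended without day replicate 4 or night replicate 1, 2 or 3 (up to 0.0668).

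Clock and photoperiod names, which hold genes known to cycle over the day, had a median of 0.36 over 23 genes. Limma and edgeR called 0 (5 higher and 2 lower at an unadjusted p under 0.05 in limma), and DESeq2 called 3 as higher. In limma 2 were higher with only the subsidiary cell libraries, 1 was higher and 1 lower without both libraries of lowest correlation, and 1 was lower without day replicate 1. The gene of smallest p, C2C2-CO-like Zm00001d029149, was at 188, 346, 504 and 566 by day and 68.4, 44, 97.6 and 39.7 by night (difference 2.64, adjusted p = 0.138 in limma and 0.012 in DESeq2), without overlap. Of 11 genes described as Phytochrome, Cryptochrome or Blue 1 fell (9.09%, against 1.22% of all genes). It was the red light receptor name Phytochrome Zm00001d034038 (-1.94 ± 0.45, adjusted p = 0.037). Its call was lost in edgeR (0.0518), without both libraries of lowest correlation, and without any 1 subsidiary cell library except day replicate 3 (up to 0.14). Of 43 starch genes 1 fell (2.33%, against 1.22% of all genes). It was Starch Zm00001d019479 at 446, 408, 606 and 550.4 by day and 2152, 2208, 1686 and 1626 by night (-1.93 ± 0.43, adjusted p = 0.0288). That call ended without any 1 of the 8 subsidiary cell libraries (up to 0.0948).

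Hormone and wall lists gave single genes. The share called was 1.54% for auxin, 0.592% for cell wall and 1.72% for wax names, near or below the 1.22% of all genes. Of 130 auxin genes 2 fell and 0 rose, Auxin-responsive Zm00001d016277 at 127, 90.5, 130.4 and 115 by day and 459, 793, 559 and 395 by night (-2.21 ± 0.46, adjusted p = 0.0189) and Auxin Zm00001d031064 (-1.94 ± 0.47, adjusted p = 0.0479), whose day replicate 1 at 1526 overlapped the night libraries. Of 169 cell wall and expansin genes 1 rose, Pectate Zm00001d036158 (2.19 ± 0.51, adjusted p = 0.0376). Of 116 wax, cuticle and non-specific names 2 rose, both described as Non-specific, Zm00001d009814 (1.49 ± 0.31, adjusted p = 0.0198) and Zm00001d005748 (3.12 ± 0.67, adjusted p = 0.0254). That word is used for lipid-transfer proteins and for protein kinases alike, and without it 0 of 33 genes of the list was called, a narrower wording chosen after the values were seen. Lists with 0 members called by limma and by edgeR were chloride and nitrate transport (10 genes, median -0.07), V-type and vacuolar names (35, -0.41), plasma membrane names (16, -0.42), calcium and calmodulin (59, -0.09), sugar transporters (32, 0.10), trehalose (15, 0.07), TIFY and jasmonate (26, 0.11), AP2 and ethylene (89, 0.00), tubulins and actins (101, -0.02), bundle sheath names (18, 0.02), vascular names (19, 0.10) and organelle identifiers (174, 0.10). At an unadjusted p under 0.05 in limma, organelle identifiers had 12 higher and 3 lower by day, calcium and calmodulin 3 and 4, AP2 and ethylene 4 and 4, tubulins and actins 2 and 3, TIFY and jasmonate 2 and 2, plasma membrane names 1 and 2, and each other list of these 0 to 2 in all. DESeq2 called 5 organelle identifiers as higher, 2 TIFY and jasmonate genes as higher and 1 as lower, 1 plasma membrane name each way, 2 calcium and calmodulin genes as lower, 2 AP2 and ethylene genes and 1 sugar transporter as higher, and 1 gene each of tubulins and actins and bundle sheath names as lower. With only the subsidiary cell libraries limma called 2 AP2 and ethylene genes as higher and 1 as lower and 1 gene of tubulins and actins as lower. It called 1 TIFY and jasmonate gene as higher without day replicate 1, and 1 of these and 1 organelle identifier as higher without both libraries of lowest correlation.

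Several of these calls were lost when any 1 of several libraries was left out. The calls of Auxin-responsive Zm00001d016277 and Non-specific Zm00001d009814 ended without day replicate 2 or 4 or night replicate 1 or 3, and further without night replicate 2 for the former and night replicate 4 for the latter (adjusted p up to 0.0832 and 0.075). Non-specific Zm00001d005748 was lost without day replicate 1, 2 or 3 or night replicate 1, 3 or 4 (up to 0.0922). Histone Zm00001d044247 was lost without day replicate 2 or night replicate 1, 2 or 3 (up to 0.0798), Histone Zm00001d045475 without any 1 subsidiary cell library except day replicates 2 and 3 (up to 0.0833), and Histone Zm00001d044246 without any 1 except day replicate 1 (up to 0.101). The remaining calls were lost without any 1 of 10 to 13 of the 16 libraries, guard cell libraries included. The call of Pectate Zm00001d036158 survived the loss of guard day replicate 2, of each guard night library and of subsidiary day replicate 1 (otherwise up to 0.123). That of 60S Zm00001d049790 survived the loss of replicates 2 and 4 of guard cells by day, replicates 1, 2 and 4 by night, and subsidiary day replicate 1 (up to 0.136). For Histone Zm00001d032070 these were replicate 2 of guard cells by day, 1, 2 and 4 by night, and subsidiary day replicate 2 (up to 0.149). For Histone Zm00001d021422 they were replicate 1 of guard cells by day, 2 and 4 by night, and subsidiary day replicates 1 and 3 (up to 0.143). For Auxin Zm00001d031064 they were replicate 4 of guard cells by night, day replicate 1 and night replicate 2 of subsidiary cells (up to 0.147). These 5 genes, Histone Zm00001d045475, Histone Zm00001d044246, Chlorophyll Zm00001d033132 and Non-specific Zm00001d005748 did not pass in edgeR (adjusted p 0.0509 to 0.12).

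The guard cells ask how far the subsidiary cell pattern is shared. Of the 254 genes higher by day in subsidiary cells 245 had a difference of the same sign in guard cells and 93 were also called there, where 282 genes (0.747%) were higher by day. Of the 207 genes lower by day 178 had the same sign and 16 were also called, where 45 genes (0.119%) were lower by day. None was called in the opposite direction. The median difference of these genes in guard cells was 1.59 and -1.12, against 2.73 and -2.96 in the subsidiary cells that chose them. Tested directly, 0 genes (0.00%) had a day and night difference that differed between the cell types by limma, with 2533 at an unadjusted p under 0.05 and a smallest adjusted p of 0.0659. DESeq2 called 149 and edgeR 1, the PVR3-like gene Zm00001d005146 (0.17 in subsidiary cells and 7.74 in guard cells, edgeR adjusted p = 0.0271). Leaving out a library gave 0 to 6 (6 without subsidiary day replicate 2, 2 without guard night replicate 3, and 1 each without guard night replicate 1, guard night replicate 2 or subsidiary day replicate 1). For Zm00001d018076, chosen after its values were seen (-6.12 in subsidiary cells and 0.81 in guard cells), the adjusted p of this test was 0.0659 in limma and ranged over the alternatives from 1.9e-07 in DESeq2 to 0.193 in limma without subsidiary night replicate 3. By limma on all 16 libraries, a gene called in subsidiary cells and not in guard cells is thus not shown to differ between them.

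**Figure D5:**
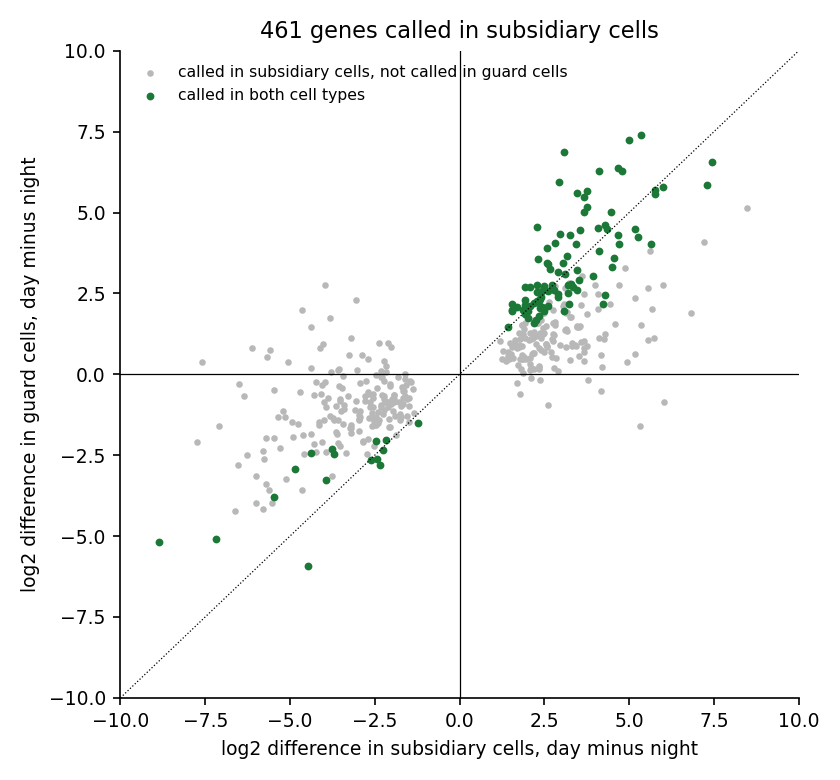
Log2 difference between day and night in subsidiary cells (horizontal axis) and in guard cells (vertical axis) for the 461 genes called in subsidiary cells, with the dotted line at equal values. Green points are the 93 higher and 16 lower genes also called in guard cells, and most points lie between the dotted line and the horizontal zero line.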

How the data were processed

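Laser-dissected guard and subsidiary cells were profiled by RNA-seq. Per the labels' protocols, cDNA was made from about 10 pg of RNA with the SMART-Seq v4 kit and 150 ng of it was used for Nextera XT libraries, which keep neither strand nor molecular identifiers. Reads are thus not independent molecules, and overlapping genes cannot be told apart. The deposited normalised counts (signal) are, per the file headers, read counts scaled by the authors with a size factor per library. In each library 100% of values came out as whole reads, to within 0.01 of a read. The authors' deposited comparison columns (log2 fold change and p-values, held as scores because 62 lines were shifted and moved back) come from DESeq2 1.40.2 on B73 RefGen v4, per the submitters' processing notes. The aligner is not given in the sources used here. Reads of genes in which B104 differs from B73 can be lost or shared.

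limma 3.58.1 (R 4.3.3) was fitted on log2(value + 1) with 4 group means over 16 libraries (12 residual degrees of freedom), for the 37759 genes that reached 10 normalised counts in 4 or more libraries (420 left out). Fold changes on this scale understate changes of low genes. edgeR 4.0.16 and DESeq2 1.42.0 on the recovered reads, other scalings, filters and pseudocounts and libraries left out were alternatives. Replicates are 4 separate collections, so p-values measure their spread.

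Named genes were, per direction, up to 12 described and 5 further called genes of smallest p without overlap, up to 3 called members per list, or the member of smallest p where none was called. All called histone and chlorophyll-binding members were added after their values were seen. Lists use the opening word of the description, which 19.8% of tested genes have, and 0 identifiers matched the reference gene table. Members and lists were chosen with earlier results of these data known. After the values were seen, 7 lists were also counted with narrower words, leaving out words that can name other products. The earlier wording is the one reported.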

Additional observations from a re-analysis of the deposited data

Results flagged for a closer look

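In 12 of 176 groups of 4 libraries examined, 1 library lay far from the other 3, its gap to the nearest exceeding Dixon's critical value. Chance gives about 1 in 20 such groups. The gap was taken on the log2 scale for genes.

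By day, E2F-DP Zm00001d004512 was at 2904 in replicate 2 against 5057 to 5230 in the others. Histone Zm00001d013066 was at 131.4 in replicate 1 against 11.58 to 15.88. Peroxidase Zm00001d005279 was at 82.04 in replicate 4 against 319.4 to 354.7, and Non-specific Zm00001d009814 at 1648 in replicate 3 against 2091 to 2126. The organelle identifier GRMZM5G889036_ was at 520.0 in replicate 4 against 1347 to 1599. The mean correlation of replicate 1 with its own group was 0.7025 against 0.7708 to 0.7847.

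By night, GTPase Zm00001d019836 was at 2247 in replicate 4 against 2929 to 3075. In replicate 1, Histone Zm00001d034479 was at 757.6 against 1696 to 1931 and Reticulon-like Zm00001d038768 at 624.6 against 1181 to 1313. Chlorophyll Zm00001d021906 was at 0 in replicate 3 against 18.47 to 34.29, and Malic Zm00001d021546 at 2107 in replicate 4 against 543.9 to 672.0. Replicate 4 held 28.87 M reads against 21.98 to 22.84 M.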

How the results depend on the processing

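The count of 461 genes came to 1334 in DESeq2 (734 higher and 600 lower by day), 959 with quality weights, 317 in edgeR (190 and 127), 614 with only the subsidiary cell libraries and 612 without both libraries of lowest correlation (subsidiary day replicate 1 and guard night replicate 4), and to 435 to 547 under the other scalings, filters and pseudocounts. Leaving out 1 library gave 235 to 643. The count of genes whose difference changed with the cell type, 0 by limma, was 149 in DESeq2, 1 in edgeR and 4 with a pseudocount of 10, and 0 to 6 with 1 library left out. The causes were not tested.

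Of 66 called named genes 44 were called under all 29 alternatives, 45 whichever library was left out and 52 in edgeR. None changed sign, which their choice as called genes made likely beforehand. Deviations of same-numbered day and night subsidiary cell libraries correlated at -0.0016 to 0.022, and those of differently numbered ones at -0.021 to 0.027. The labels do not say whether a replicate number marks a shared collection, and correlations this near 0 cannot exclude it. With the replicate block 386 genes were called. With the narrower list words, chosen after the values were seen, the wax list went from 2 called of 116 to 0 of 33, and the other 6 lists kept their counts, while the median of the abscisic acid list went from 0.27 to 0.02. At a median standard error of 0.73, small differences were not detectable.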

Other observations

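Some called genes had no read in any library on one side, and were picked after their values were seen. The Myosin-like genes Zm00001d033691 and Zm00001d022422 had no reads in the 4 day libraries. By night the former was at 65.3, 11.4, 39.2 and 56.1 normalised counts and the latter at 63.8, 14.1, 43.6 and 62.2, with similar values in each library. Against a floor of 3 reads over the day group, they were at least 64.8-fold and at least 69.2-fold higher by night (limma, adjusted p = 0.0381 and 0.0418). They are 2 of 6 genes of that word. The undescribed gene Zm00001d020581 had no reads by night and was at 18.1, 72.6, 31.2 and 54.2 by day, at least 59.5-fold higher.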
